A study of Mus musculus with 6 samples.

Results

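The aryl hydrocarbon receptor, encoded by Ahr, was examined together with its repressor Ahrr and its direct targets Cyp1a1, Cyp1b1 and Tiparp in RNA-seq counts from mouse intestinal epithelium. These 5 genes were taken by symbol from the 54532 genes of the deposited count table, and each symbol had 1 row. All 6 libraries came from mice labelled Apoe-/-, which lack functional apolipoprotein E and are used to study atherosclerosis. One group of 3 libraries, Candida albicans replicates 1 to 3, came from mice given this yeast by gavage, and the other 3, PBS replicates 1 to 3, from mice given phosphate-buffered saline. Gavage was repeated every 3 days for 2 weeks, after which epithelium was collected as polyA RNA. No source used here gives the age or sex of the mice, the segment of intestine or whether a library holds 1 mouse or a pool, so p-values describe the spread between libraries only.

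The aryl hydrocarbon receptor is a ligand-activated transcription factor that waits in the cytosol in a complex with HSP90 and the cochaperone p23. When it binds a ligand it enters the nucleus, pairs with ARNT and binds xenobiotic response elements, whose core letters are GCGTG, near genes for ligand-clearing cytochrome P450 enzymes. In the gut its ligands come from food, from microbial breakdown of tryptophan and from the host's own tryptophan metabolism, and its activity is known to maintain intraepithelial and innate lymphocytes and interleukin 22 production. The response restrains itself: CYP1A1 and CYP1B1 oxidize ligands, AHRR competes with the receptor for ARNT, and TIPARP is an ADP-ribosyltransferase that promotes loss of the receptor.

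Promoter sequences of the repressor and the 3 targets are given because the receptor binds DNA at the core letters. Whether the letters in these windows make the genes targets was not tested. The levels of the 4 genes in the same libraries differed widely, and any link to the letters was not tested. RefSeq's table for GRCm38.p6 held 4 of the 5 members, and Ahr was not matched in it. Each window runs 5′ to 3′ from 250 bases before to 50 bases after the transcription start, with GCGTG, or CACGC where the core lies on the other strand, in capitals.
Ahrr (chr13:74292282-74292581, - strand): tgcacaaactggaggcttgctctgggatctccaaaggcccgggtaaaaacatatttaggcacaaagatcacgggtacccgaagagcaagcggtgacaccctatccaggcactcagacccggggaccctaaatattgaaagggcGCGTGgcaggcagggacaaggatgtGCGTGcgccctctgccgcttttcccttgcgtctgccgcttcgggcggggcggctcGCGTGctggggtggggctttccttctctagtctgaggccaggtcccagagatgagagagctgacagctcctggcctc
Cyp1a1 (chr9:57697363-57697662, + strand): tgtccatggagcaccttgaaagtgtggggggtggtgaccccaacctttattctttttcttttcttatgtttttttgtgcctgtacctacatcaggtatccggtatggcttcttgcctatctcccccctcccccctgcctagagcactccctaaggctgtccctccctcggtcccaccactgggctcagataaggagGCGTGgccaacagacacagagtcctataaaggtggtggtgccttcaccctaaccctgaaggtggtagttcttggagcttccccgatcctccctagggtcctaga
Cyp1b1 (chr17:79715012-79715311, - strand): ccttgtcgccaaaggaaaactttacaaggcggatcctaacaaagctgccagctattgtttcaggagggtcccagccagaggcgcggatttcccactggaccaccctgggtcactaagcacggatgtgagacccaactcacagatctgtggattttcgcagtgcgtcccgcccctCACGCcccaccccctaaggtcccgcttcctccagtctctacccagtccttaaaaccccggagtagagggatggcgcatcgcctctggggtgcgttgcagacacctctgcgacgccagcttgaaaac
Tiparp (chr3:65528197-65528496, + strand): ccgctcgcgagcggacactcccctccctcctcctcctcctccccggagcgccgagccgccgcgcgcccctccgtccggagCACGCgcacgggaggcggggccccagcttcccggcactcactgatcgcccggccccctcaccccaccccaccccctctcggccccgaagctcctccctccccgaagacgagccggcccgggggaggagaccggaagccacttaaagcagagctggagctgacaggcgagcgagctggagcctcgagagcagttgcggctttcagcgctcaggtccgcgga

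All 4 windows held the core on at least 1 strand, which 32.4% of the 32851 windows in the table also did. Ahrr held 3 copies, beginning 107, 82 and 27 bases before the start, while Cyp1a1 held 1 beginning 54 bases, Cyp1b1 1 beginning 76 bases and Tiparp 1 beginning 170 bases before it. Of all windows, 11.1% held 2 or more copies. The longer element TNGCGTG, searched on both strands and containing the core, was found in 1 of the 4, Ahrr, and in 5.07% of all windows. These are matches of letters and were not tested as binding sites.

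Library totals lay between 21406930 and 24891735 counts. Values are given as CPM, counts relative to a library total that was scaled by edgeR's TMM method, and a library with no count of a gene allows up to 0.113 to 0.148 CPM at 3 counts, for counting error only. Summed epithelial markers, Epcam, Cdh1 and Vil1 among 10, came to 21623 to 25101 CPM in the Candida albicans libraries and 13871 to 22995 CPM in the PBS libraries, so the labelled tissue was present. Apoe itself was counted in both groups, at 62.1 ± 12.5 CPM with Candida albicans against 83.2 ± 23.3 CPM with PBS (SD, n = 3 each), and the altered part of the gene was not examined. Mature enterocyte markers summed to 52300 to 74979 CPM with Candida albicans and 10529 to 34744 CPM with PBS, without overlap (exact two-sided permutation p = 0.1, the smallest that 3 against 3 allows). Mitochondrially encoded genes took 3.19% to 4.63% of counts with Candida albicans and 5.89% to 8.92% with PBS. In edgeR's quasi-likelihood test 0 of 16313 genes (0%) reached a Benjamini-Hochberg adjusted p under 0.05, 29.6% had an unadjusted p under 0.05 (13.4% higher, 16.2% lower), and the DESeq2 Wald test called 2897 genes, 19.7% of the 14715 it adjusted. The higher share of unadjusted calls was 45.2% under TMM, 54.5% under DESeq2 size factors and 13.8% under library totals, with median log2 fold changes of all genes of -0.16, -0.08 and -0.45.

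Of the 5 members, Tiparp and Ahr were well counted, Cyp1b1 was counted mainly in the PBS libraries, and Ahrr and Cyp1a1 were near or below the counting limit. Ahr, Cyp1b1 and Tiparp passed the filter on low counts and were tested, and none reached an adjusted p under 0.05 in edgeR's or DESeq2's test. Of the 3, 1 had an unadjusted p under 0.05, on the higher side, and the same gene, Tiparp, was the only one of the 5 whose groups did not overlap. Across all tested genes the groups did not overlap for 35.6%, 17.6% on the higher side. The shares among members are therefore near the background.

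The receptor gene Ahr (ENSMUSG00000019256, chromosome 12, 35497974 to 35535038, minus strand, mm10) was at a modest level in both groups. It had 12.4, 13.2 and 9.33 CPM in Candida albicans replicates 1 to 3, from 251, 277 and 220 counts, against 11.8, 8.39 and 10.5 CPM in PBS replicates 1 to 3, from 313, 203 and 265 counts. The groups overlapped, with the lowest value in PBS replicate 2 and the highest in Candida albicans replicate 2. Its log2 fold change, Candida albicans over PBS, was 0.18 (SE 0.22, edgeR adjusted p 0.58), with a 95% interval of -0.33 to 0.70, and it was -0.11 when libraries were scaled by their totals only. The interval leaves changes of either sign possible. Gm48236, a noncoding gene model on the opposite strand that overlaps the start of Ahr in GENCODE M21, held 6 counts over all libraries, few beside the counts of Ahr.

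Ahrr, the repressor gene (ENSMUSG00000021575, chromosome 13, 74211118 to 74292331, minus strand), was barely transcribed or barely sampled. It had 15, 10 and 0 counts in Candida albicans replicates 1 to 3, against 14, 3 and 0 counts in PBS replicates 1 to 3. In CPM these are 0.741, 0.475 and 0 with Candida albicans and 0.529, 0.124 and 0 with PBS, so the groups overlapped throughout. The exact Poisson 95% interval, which covers counting error only, was 0.414 to 1.22 CPM in Candida albicans replicate 1, and above 0 in 4 of the 6 libraries. It did not pass the count filter. With no filter, edgeR gave a log2 fold change of 0.85 (SE 1.39, adjusted p 0.74), so that no difference was detected. Libraries of the same group also differed beyond counting error. The interval was 0 to 0.156 CPM in Candida albicans replicate 3, below that of replicate 1. With PBS it was 0.289 to 0.888 CPM in replicate 1 and 0 to 0.146 CPM in replicate 3.

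Cyp1a1 (ENSMUSG00000032315, chromosome 9, 57687928 to 57703824, plus strand), the enzyme gene most often read as the sign of receptor activity, was close to silent in these libraries. It had 2, 5 and 0 counts in Candida albicans replicates 1 to 3 and 0, 0 and 0 counts in PBS replicates 1 to 3. The 7 counts come from Candida albicans replicates 1 and 2, while replicate 3 of that group held none, as in all PBS libraries. In CPM the values were 0.0987, 0.238 and 0 with Candida albicans, with exact Poisson 95% intervals of 0.0120 to 0.357 and 0.0771 to 0.554 in the first 2. A count of 0 in a PBS library allows up to 0.113 CPM in replicate 1, 0.124 in replicate 2 and 0.119 in replicate 3. Those limits lie inside both intervals, so a difference between single libraries was not detectable at this depth, and the gene did not pass the count filter. With no filter edgeR's unadjusted p was 0.056 and its adjusted p 0.28.

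Cyp1b1 (ENSMUSG00000024087, chromosome 17, 79706953 to 79715041, minus strand), a P450 gene of the same family known for expression in connective tissue as well as epithelium, varied widely between libraries. It had 42, 2 and 0 counts in Candida albicans replicates 1 to 3, against 195, 26 and 101 counts in PBS replicates 1 to 3. As CPM these are 2.07, 0.0950 and 0 with Candida albicans and 7.37, 1.07 and 4.01 with PBS. Candida albicans replicate 1 stood above PBS replicate 2, so the groups overlapped, and the spread within each group was wide (0.723 ± 1.17 CPM with Candida albicans against 4.15 ± 3.15 CPM with PBS, SD, n = 3 each). The log2 fold change was -2.53 (SE 1.48, edgeR adjusted p 0.28), with a 95% interval of -6.09 to 1.03.

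**Figure D1:**
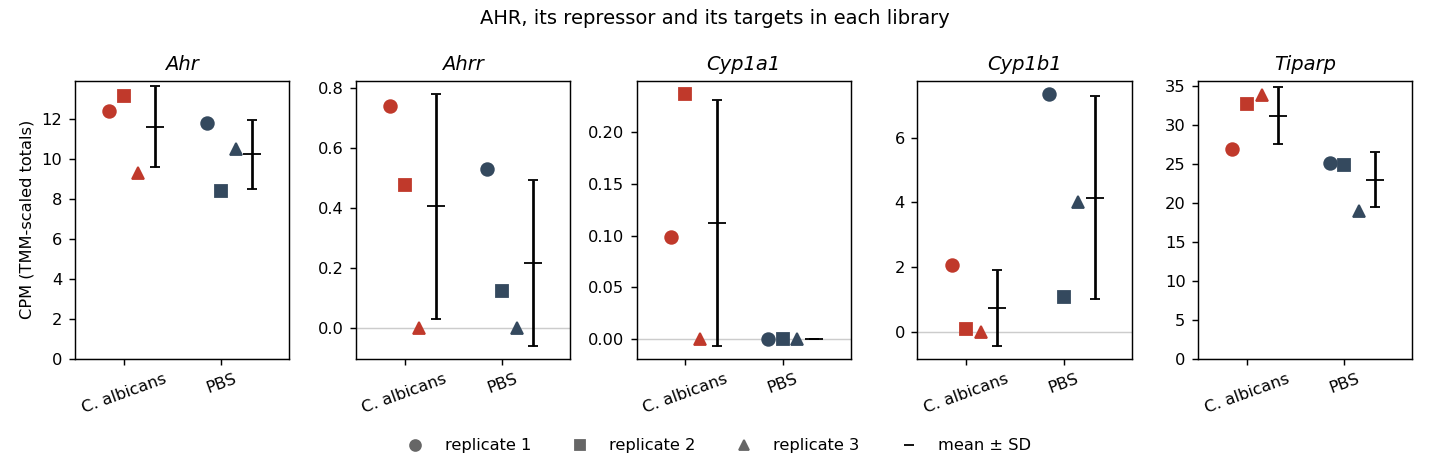
CPM on TMM-scaled totals (vertical axis, its range set for each gene) of the 5 genes in the Candida albicans libraries (red, left) and the PBS libraries (dark, right), 1 symbol per library by replicate number, with the mean ± SD of 3 libraries beside them. Tiparp is the only gene whose groups do not overlap, Cyp1a1 is at 0 in 4 of 6 libraries, and Cyp1b1 ranges from 0 to 7.37 CPM.

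Cyp1b1 had the library order of the summed smooth muscle markers, and that of the summed fibroblast markers only when 1 of them was left out. Ranked from high to low by Cyp1b1, the libraries ran PBS replicate 1, PBS replicate 3, Candida albicans replicate 1, PBS replicate 2, Candida albicans replicate 2 and Candida albicans replicate 3. The summed CPM of 10 smooth muscle markers had the same order, at 1792, 234 and 206 in Candida albicans replicates 1 to 3 and 7055, 524 and 3493 in PBS replicates 1 to 3. In each library all 10 of these markers were counted, and all 10 had negative log2 fold changes (median -2.69), with an exact permutation p of 0.2 for the sum. Of 10 fibroblast markers 9 were tested and 8 of these had negative log2 fold changes; Fbln1, at 1.55, was the exception. Fbln1 took between 11.2% and 93.8% of the fibroblast sum. The sum of the 10 overlapped between groups at 183 to 563 CPM with Candida albicans and 174 to 892 CPM with PBS (exact permutation p = 0.7). Its order differed from that of Cyp1b1, with PBS replicate 2 lowest and Candida albicans replicate 1 above PBS replicate 3. With Fbln1 left out, a choice made after its values were seen, the other 9 summed to 175, 44.3 and 11.3 CPM in Candida albicans replicates 1 to 3 and 716, 101 and 355 CPM in PBS replicates 1 to 3, again in the order of Cyp1b1. Taken singly, Col1a1, Col1a2, Col3a1, Col6a1, Dcn, Lum and Pdgfra also ran in the order of Cyp1b1, while Fn1, Fbln1 and Mfap5 did not. Of the single smooth muscle markers Tagln, Mylk and Smtn did not, and the others did. Mfap5 and Lum were the fibroblast markers with no count in Candida albicans replicate 3, and Mfap5 had none in PBS replicate 3 either.

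Set against the fibroblast markers, the place of Candida albicans replicate 1 depended on whether Fbln1 was counted among them. Per 1000 CPM of all 10 markers Cyp1b1 had 3.68, 0.276 and 0 CPM in Candida albicans replicates 1 to 3, against 8.26, 6.16 and 10.04 CPM in PBS replicates 1 to 3, without overlap. Per 1000 CPM of the 9 markers without Fbln1 it had 11.9, 2.14 and 0 CPM in Candida albicans replicates 1 to 3, against 10.3, 10.7 and 11.3 CPM in PBS replicates 1 to 3, so that Candida albicans replicate 1 then lay with the PBS libraries. The values of Candida albicans replicates 2 and 3 rest on 2 and 0 counts. Per 1000 CPM of smooth muscle markers Cyp1b1 had 1.16, 0.406 and 0 with Candida albicans and 1.04, 2.05 and 1.15 with PBS. Of the smooth muscle sums, Mylk alone gave 416, 208 and 190 CPM with Candida albicans and 1014, 176 and 553 CPM with PBS. In Candida albicans replicates 2 and 3 the smooth muscle sum therefore rests mostly on that 1 marker, and ratios without Mylk were not computed. Endothelial markers did not share the order: they summed to 23.7, 25.7 and 11.2 CPM with Candida albicans and 46.6, 29.5 and 23.3 CPM with PBS, and the groups overlapped (exact permutation p = 0.3). With the mean log2 CPM of the 10 smooth muscle markers as a covariate the log2 fold change of Cyp1b1 was -0.49 (SE 0.52, edgeR adjusted p 0.61). In bulk RNA, fewer cells of a type and less RNA per cell cannot be told apart. Leaving out Candida albicans replicate 1 gave -6.36 (adjusted p 0.082), and leaving out replicate 1 of both groups gave -5.54 (adjusted p 0.049), the one setting in which a member passed the threshold.

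**Figure D2:**
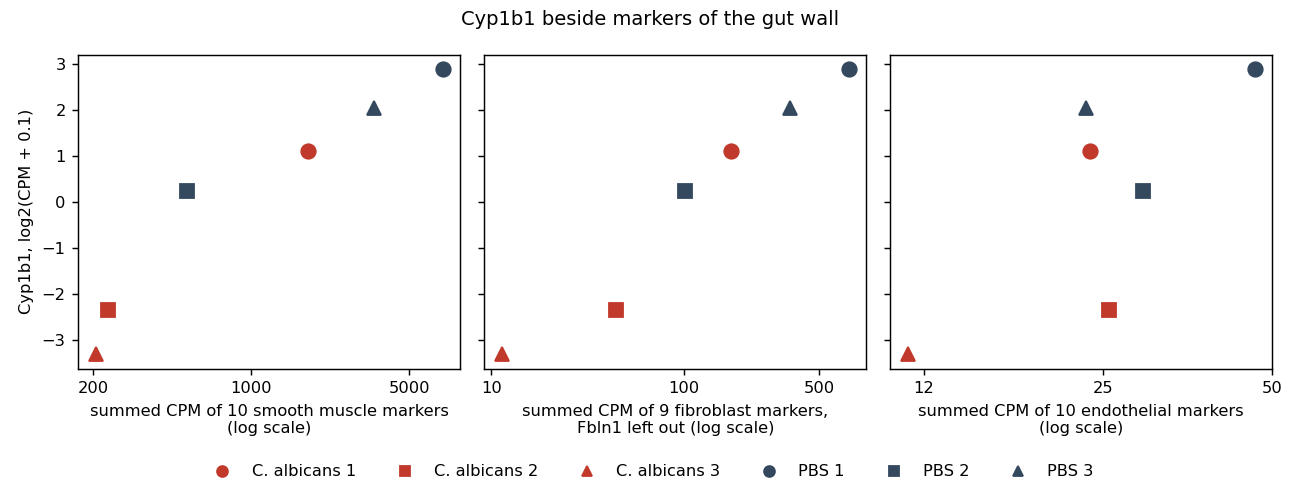
Cyp1b1 as log2(CPM + 0.1) (vertical axis) against the summed CPM of smooth muscle, fibroblast and endothelial markers (horizontal axes, log scale) in the 6 libraries, Candida albicans in red and PBS dark. The libraries run in 1 order for Cyp1b1, the smooth muscle sum and the sum of 9 fibroblast markers. PBS replicate 1 is at the top and Candida albicans replicate 3 at the bottom. The endothelial sum runs in a different order. The fibroblast marker Fbln1, with a log2 fold change of 1.55, was left out after its values were seen. The sum of all 10 fibroblast markers also runs in a different order.

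Tiparp (ENSMUSG00000034640, chromosome 3, 65528410 to 65555518, plus strand) was the most abundant member and was higher in every Candida albicans library than in any PBS library. It had 27.0, 32.7 and 33.8 CPM in Candida albicans replicates 1 to 3, from 546, 688 and 797 counts, against 25.2, 24.8 and 19.0 CPM in PBS replicates 1 to 3, from 666, 600 and 478 counts. The gap between the groups was narrow, with 27.0 CPM in Candida albicans replicate 1 above 25.2 CPM in PBS replicate 1. Its log2 fold change was 0.44 (SE 0.16), a fold of 1.36 with a 95% interval on the log2 scale of 0.05 to 0.83. The edgeR unadjusted p was 0.032 and the adjusted p 0.14, so it did not pass over all genes. The estimate was positive under each alternative run, but 0.17 (adjusted p 0.46) when libraries were scaled by their totals only and 0.25 (adjusted p 0.53) with the smooth muscle covariate. The processed pseudogene 4931440P22Rik overlaps its start on the other strand and held 143 counts in all, against 3775 for Tiparp, few beside the counts of Tiparp. Mature enterocyte markers and the mitochondrial share, given above, separated the groups in the same libraries, and their part in the Tiparp difference was not tested.

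Per kilobase of gene model, the only scale on which genes are compared here, the order of mean levels was Tiparp, Ahr, Cyp1b1, Ahrr and Cyp1a1 in both groups. Tiparp had 7.15 ± 0.843 CPM per kilobase with Candida albicans and 5.27 ± 0.797 with PBS, and Ahr 1.89 ± 0.329 and 1.66 ± 0.281 in the same order of groups (SD, n = 3 each). Cyp1b1 had 0.141 ± 0.228 with Candida albicans and 0.809 ± 0.614 with PBS, Ahrr 0.0429 ± 0.0397 and 0.0231 ± 0.0293, and Cyp1a1 0.0402 ± 0.0428 and 0. Tiparp stood above Ahr, and Ahr above the other 3, in each of the 6 libraries. In the Candida albicans libraries the order of Cyp1b1, Ahrr and Cyp1a1 was not the same in each library. In replicate 1 they had 0.404, 0.0784 and 0.0354 CPM per kilobase. In replicate 2 they had 0.0185, 0.0503 and 0.0852, from 2, 10 and 5 counts, and in replicate 3 each was at 0. The ratio of Tiparp to Ahr on this scale was 3.08, 3.51 and 5.12 in Candida albicans replicates 1 to 3 and 3.01, 4.18 and 2.55 in PBS replicates 1 to 3, and these ranges overlapped.

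The partners and chaperones of the receptor were divided. Of 8 tested, 0 passed the adjusted threshold in edgeR, while an unadjusted p under 0.05 was reached by 2 on the higher and 2 on the lower side, against 13.4% and 16.2% of all genes. The median log2 fold change was -0.09, against -0.16 over all genes, and 0.06 without PBS replicate 2. Without Candida albicans replicate 1 the unadjusted counts were 0 higher and 1 lower. DESeq2 called 3 of the 8, against 19.7% of all genes: Arnt, Hsp90aa1 and Hsp90ab1. Arnt, the dimer partner that the receptor needs to bind DNA, had 60.5, 55.6 and 52.2 CPM with Candida albicans and 44.8, 44.2 and 35.1 CPM with PBS, without overlap. Its log2 fold change was 0.44 (SE 0.13, edgeR adjusted p 0.10). The 2 HSP90 genes, whose products hold the receptor ready for ligand, lay on the other side. Hsp90aa1 had 90.8, 94.5 and 74.3 CPM with Candida albicans and 125, 178 and 132 CPM with PBS (log2 fold change -0.74, SE 0.18, edgeR adjusted p 0.082). Hsp90ab1 had 344, 407 and 407 CPM with Candida albicans and 466, 706 and 613 CPM with PBS (log2 fold change -0.62, SE 0.20, edgeR adjusted p 0.11). Both HSP90 genes have near-identical copies in the genome, so single values are uncertain. Ptges3, which encodes p23 of the same complex, had -0.38 and overlapped. Arnt2, the paralog of Arnt, had 1.15 with an SE of 0.60. Among the coactivators Ncoa2 had 0.42 and did not overlap, while Ncoa1 (0.02) and Ncoa3 (-0.20) did overlap. Under library totals no partner was on the higher side at an unadjusted p under 0.05 and 4 were on the lower side. Over all genes 13.8% of the unadjusted calls at that setting were on the higher side, with a median log2 fold change of -0.45.

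Other genes reported as receptor targets also lay on both sides. The list held 15, of which 11 were tested, 0 passed the adjusted threshold in edgeR, and an unadjusted p under 0.05 was reached by 4 higher and 1 lower, against 13.4% and 16.2% of all genes, with a median log2 fold change of 0.15. Under library totals 2 were higher and 3 lower, where 13.8% of the unadjusted calls over all genes were on the higher side. The median was then -0.12, against -0.45 over all genes. The higher count was also 2 without Candida albicans replicate 1 or without PBS replicate 2, and the median was -0.07 without PBS replicate 3. DESeq2 called 4 higher and 1 lower of the 11, against 19.7% of all genes in either direction. Of the classical xenobiotic battery, Cyp1a2, a liver P450, had no count in any library. Aldh3a1, an aldehyde dehydrogenase induced by dioxin in liver, had at most 0.476 CPM in any library and was not tested. Nqo1, a quinone reductase shared with NRF2, had 15.6, 25.5 and 22.1 CPM with Candida albicans and 22.2, 44.7 and 22.0 CPM with PBS, overlapping (log2 fold change -0.49, SE 0.33). Ugt1a6a, a glucuronosyltransferase of the battery, had 7.95, 5.61 and 8.02 CPM with Candida albicans and 4.42, 4.38 and 5.16 CPM with PBS, without overlap. Its log2 fold change was 0.63 (SE 0.24, edgeR adjusted p 0.14), and it shares exons with the other Ugt1a genes, so its reads may be split among them. Gsta1, a glutathione transferase with the near-identical Gsta2, had -1.43 with an SE of 0.82, and 0.13 without PBS replicate 2, which held 74.9 CPM.

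Outside the battery, Aldh9a1, an aldehyde dehydrogenase, had the lowest p of this list, at 625, 662 and 552 CPM with Candida albicans and 389, 324 and 324 CPM with PBS (log2 fold change 0.82, SE 0.16, edgeR adjusted p 0.078). Nfe2l2, which encodes the antioxidant factor NRF2, had 0.64 (SE 0.15, edgeR adjusted p 0.081), and Ugdh, which makes UDP-glucuronic acid, 0.71 (SE 0.25). Neither of those 2 overlapped between groups. Slc7a5, an amino acid transporter that carries tryptophan and kynurenine, had 4.25, 6.13 and 5.77 CPM with Candida albicans and 7.52, 18.1 and 12.3 CPM with PBS (log2 fold change -1.23, SE 0.35, edgeR adjusted p 0.094). Znrf3, a membrane ubiquitin ligase that restrains Wnt signalling, had -0.52 (SE 0.29), and neither Slc7a5 nor Znrf3 overlapped between groups. Among the tested genes of this list 4 were higher and 2 lower without overlap, against 17.6% and 18.1% of all genes. Of the 11 genes of this list with a promoter window in the table, 6 held the core GCGTG, against 32.4% of all windows, a difference that was not tested. These genes are not the same as those tested for expression: they include Cyp1a2 and Gsta2 and lack Slc7a5 and Znrf3. Aldh9a1 held 2 and Ugdh 3, while Nfe2l2, Ugt1a6a, Nqo1, Cyp2s1 and Cyp1a2 held none in this window.

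Genes that supply or remove tryptophan-derived ligands were tested in 11 of 15 cases. At an unadjusted p under 0.05, 4 were higher and 0 lower, against 13.4% and 16.2% of all genes, and 0 passed the adjusted threshold in edgeR and 3 in DESeq2, which called 19.7% of all genes. The median log2 fold change was -0.0080, but 0.68 with the smooth muscle covariate and 0.41 without PBS replicate 1. At a mean of 5 CPM it was 0.74, over a smaller set, since only 6 of the 11 genes were then tested. The unadjusted counts were 3 higher and 2 lower without Candida albicans replicate 1, and 2 higher and 0 lower without PBS replicate 2. The 3 that DESeq2 called were Slc6a19, Maoa and Slc3a2. Slc6a19, the brush border transporter that takes up tryptophan and other neutral amino acids, had 2453, 2314 and 1754 CPM with Candida albicans and 1232, 647 and 274 CPM with PBS (log2 fold change 1.60, SE 0.52, edgeR adjusted p 0.12). Maoa, the monoamine oxidase that degrades tryptamine and serotonin, had 1116, 1075 and 804 CPM with Candida albicans and 504, 604 and 352 CPM with PBS (log2 fold change 1.04, SE 0.25, edgeR adjusted p 0.083). Slc3a2, the heavy chain that Slc7a5 pairs with, had 1.08 (SE 0.31, edgeR adjusted p 0.095), opposite in sign to Slc7a5. Kyat1, a kynurenine aminotransferase, had 0.54 (SE 0.20). These transporters and enzymes are abundant in mature enterocytes, whose summed markers separated the groups as given above, and the part of those cells in the difference was not tested. Ido1, which opens the kynurenine route, had 28.9, 24.4 and 27.3 CPM with Candida albicans and 27.6, 45.1 and 23.6 CPM with PBS, so the groups overlapped (log2 fold change -0.26, SE 0.25). Kmo (-0.72), Haao (-0.88) and Tph1 (-0.63), which act later in that route or in serotonin synthesis, had standard errors of 0.66, 0.97 and 0.40. Tdo2, Ido2, Il4i1 and Aadat did not pass the count filter, each at or below 0.509 CPM in every library.

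The cytokine that receptor activity sustains in lymphocytes was not found, while its epithelial receptor was. Il22 and Il17a had no count in any of the 6 libraries, which allows up to 0.148 CPM in the library with the highest limit. Of 10 genes in the lymphocyte and interleukin 22 list, 6 were tested, 0 passed the adjusted threshold in edgeR, an unadjusted p under 0.05 was reached by 2 higher and 1 lower, against 13.4% and 16.2% of all genes, and the median log2 fold change was 0.26. That direction rested on Candida albicans replicate 1, without which 1 was higher and 3 lower with a median of -0.90. The median was also negative under the replicate block (-0.53), voom (-0.66) and library totals (-0.04, against -0.45 over all genes). Without PBS replicate 2, 0 were higher and 1 lower. DESeq2 called the same 3 of the 6, against 19.7% of all genes: Il22ra1, Il10rb and Kit. Il22ra1, the chain that gives epithelium its response to interleukin 22, had 100.1, 119 and 128 CPM with Candida albicans and 79.2, 42.5 and 29.8 CPM with PBS (log2 fold change 1.20, SE 0.35, edgeR adjusted p 0.10). Il10rb, its partner chain, had 0.54 (SE 0.17, edgeR adjusted p 0.11). The 10 markers of T cells and intraepithelial lymphocytes summed to 134, 88.0 and 75.0 CPM with Candida albicans and 81.1, 50.1 and 84.8 CPM with PBS, overlapping, and Il23r, a receptor of type 3 lymphocytes, had at most 0.238 CPM. Kit, a receptor tyrosine kinase of innate lymphocytes and several other cell types, had 10.7, 14.4 and 15.7 CPM with Candida albicans and 37.4, 33.3 and 35.6 CPM with PBS (log2 fold change -1.38, SE 0.17, edgeR adjusted p 0.073), the lowest p of the 4 lists. Ccr6 (-0.67), Il22ra2 (0.32) and Il7r (0.20) had standard errors of 1.56, 1.43 and 0.66, and Ccr6 ran from -5.94 to -0.02 when libraries were left out.

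**Figure D3:**
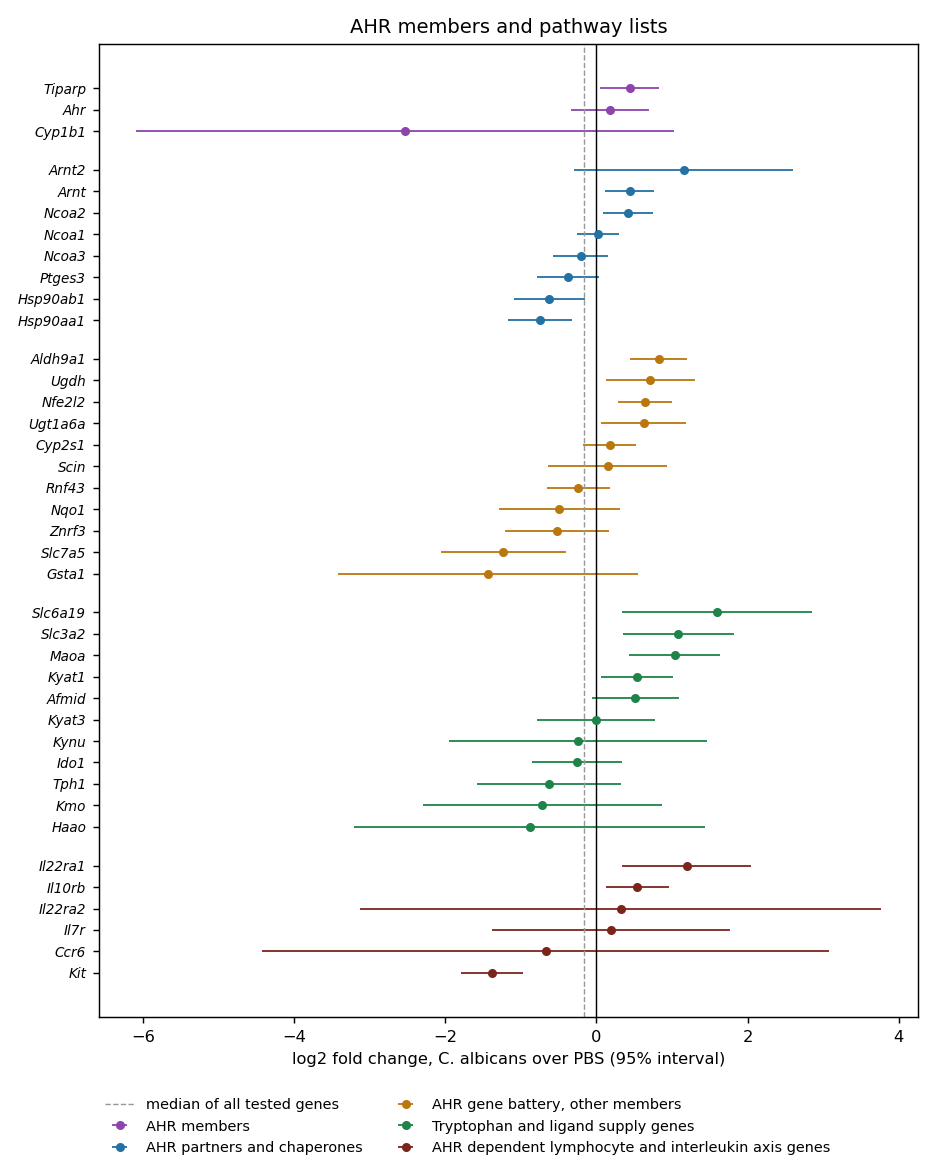
Log2 fold change, Candida albicans over PBS (horizontal axis), with its 95% interval for the 3 tested members and the tested genes of 4 lists (rows, grouped by colour), 3 libraries per group; the dashed line is the median of all tested genes, -0.16. Each list has genes on both sides of 0, Cyp1b1 has the widest interval of the members, and Ahr, Ncoa1 and Il7r are among the points that change sign when libraries are scaled by totals only.

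The genes whose log2 CPM ran closest to each tested member over the 6 libraries were taken from 9894 named genes with a mean of at least 5 CPM, by Pearson's r, given as a description since they were picked for it and the points share the same libraries. For Ahr they were Tcaim (r = 0.970), Glo1 (0.953), which encodes the methylglyoxal-detoxifying enzyme glyoxalase, and Hcfc2 (0.953). These had log2 fold changes of 0.13, 0.10 and 0.14, each negative under library totals. For Cyp1b1 they were Plekho1 (0.998), Rims1 (0.998) and Des (0.998), the last encoding the muscle intermediate filament desmin and 1 of the 10 smooth muscle markers. In Des the 6 libraries held 257, 2.19 and 0.806 CPM with Candida albicans and 1230, 68.9 and 547 CPM with PBS. For Tiparp they were Gcnt4 (0.995), a glycosyltransferase gene, Arhgef5 (0.994), a guanine nucleotide exchange factor gene, and Mcmbp (0.993), whose product binds the replicative helicase. Their log2 fold changes were 0.59, 0.19 and 0.46, and Arhgef5 had -0.085 under library totals. Only 16 of the 9894 candidates exceeded r = 0.9 with Ahr, against 401 with Cyp1b1 and 302 with Tiparp.

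**Figure D4:**
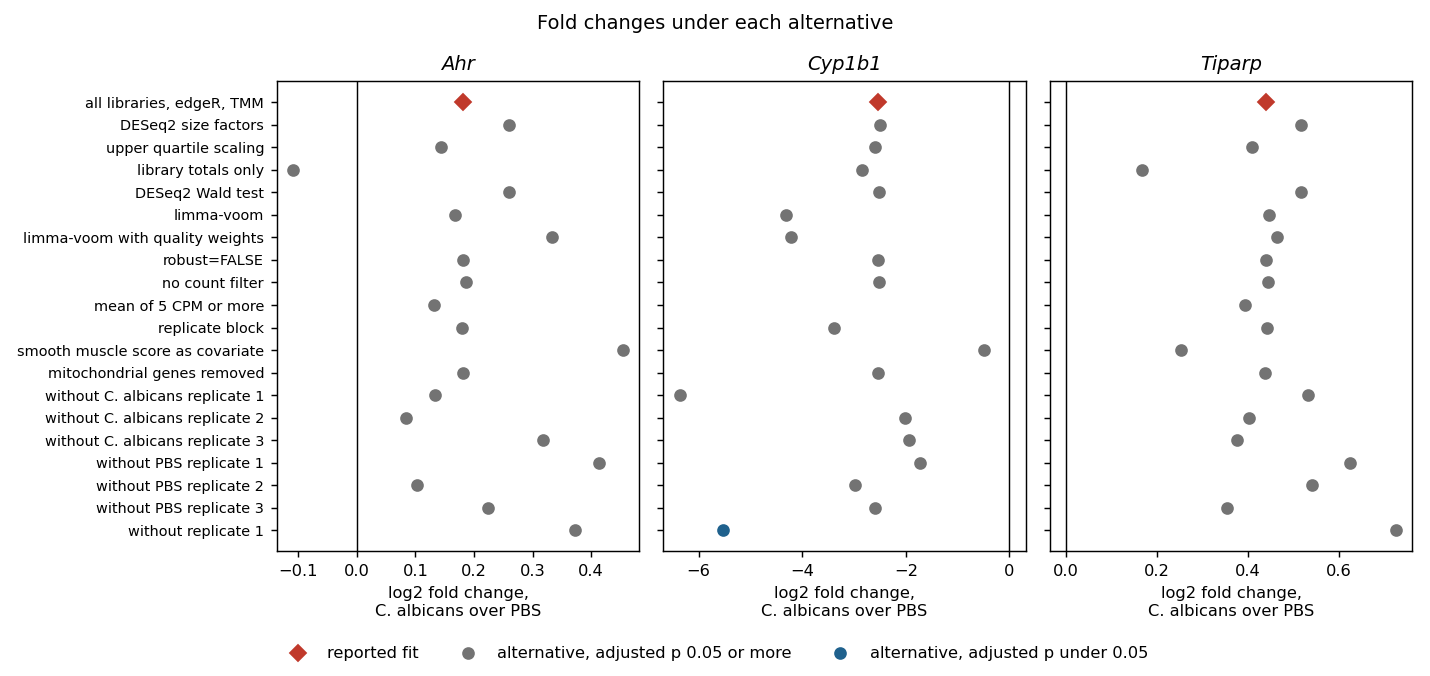
Log2 fold change, Candida albicans over PBS (horizontal axes, 1 range per gene), of Ahr, Cyp1b1 and Tiparp in the reported fit (red diamond) and under each alternative (rows). Tiparp stays above 0 and Cyp1b1 below 0 in each fit shown, Ahr changes sign under library totals only, and the blue point, Cyp1b1 without replicate 1 of both groups, is the one with an adjusted p under 0.05.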

How the data were processed

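RNA-seq counts per Ensembl gene were taken as the authors deposited them, whole numbers with no normalization and 1 column per library. The submitters' processing notes name featureCounts 2.0.1, HISAT2 2.2.1, Trim Galore 0.6.7 and build mm10; no source used here gives their parameters, the strand setting or the annotation release, so reads of overlapping, antisense or near-identical genes may be shared. Gene lengths are the authors' deposited column of that name, another measure in bases. In R 4.3.3, genes were kept with edgeR 4.0.16 filterByExpr (minimum count 10, minimum total 15), 16313 of the 29031 with a count, and tested two-sided with glmQLFit (robust=TRUE) and glmQLFTest on TMM scaling without covariate, adjusted over all genes at 0.05. Standard errors come from the F statistic and log2 CPM uses a prior count of 2. Each library differed from every other by more than sampling noise (a chi-square of at least 32.8 per degree of freedom).

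The members and the lists were chosen with earlier results of these data known, and lists are described by counts and medians; some genes of the lists are not reported here. Named were the 5 members, every tested gene of a list with 10 or fewer tested and otherwise the 4 of lowest p in each direction, and the 3 genes most like each tested member; other names are examples given with their values. Alternatives were 3 other scalings, DESeq2 1.42.0, limma 3.58.1 voom with and without quality weights, robust=FALSE, no filter, a mean of 5 CPM, a replicate block, a smooth muscle covariate, no mitochondrial genes, and each library or both replicates 1 left out.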

Additional observations from a re-analysis of the deposited data

How the results depend on the processing

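Direction held under all 19 alternatives for Tiparp and under all 18 that gave Cyp1b1 a value (a mean of 5 CPM left it untested); neither passed 0.05 except Cyp1b1 at -5.54 without replicate 1 of both groups. Over the fits that left libraries out, Tiparp ran from 0.35 to 0.73, Cyp1b1 from -6.36 to -1.73 and Ahr from 0.08 to 0.41, and Ahr was -0.11 under library totals. Libraries left out could leave 2 in a group, whose spread is then pooled with the other group. Genes called higher and lower, 0 and 0 in the reported fit, numbered 1 and 2 with upper quartile factors, 14 and 174 with library totals, 1740 and 1157 with DESeq2, 1232 and 1337 with quality-weighted voom, 295 and 257 with no filter, 10 and 33 at a mean of 5 CPM, and 14 and 28 with the smooth muscle covariate. Leaving libraries out gave 0 to 1691 higher and 0 to 926 lower, the highest without PBS replicate 1. Same-numbered libraries are not shown to be paired: their deviations correlated at 0.576, 0.357 and 0.0458, and 4 of 6 libraries correlated best with their own number. With the replicate block 1030 genes were higher and 1050 lower, with Cyp1b1 at -3.39 (adjusted p 0.095) and Tiparp at 0.44 (adjusted p 0.12).

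Signs turned as follows, for genes near 0 and for some with larger estimates (Gsta1, Haao, Kmo and Ccr6). Ncoa1 had -0.00997 under upper quartile, -0.26 under library totals, -0.0075 with weighted voom, -0.021 at 5 CPM and -0.10 with the covariate. Il22ra2 had -1.30 with voom, -2.31 with weighted voom and -1.10 with the block, and Il7r -0.10 under library totals, -0.011 with voom and -0.34 with weighted voom. Under library totals Tcaim had -0.16, Glo1 -0.19, Hcfc2 -0.16 and Arhgef5 -0.085, and with the covariate Kmo had 0.24, Haao 0.094 and Ccr6 0.17. Leaving libraries out gave ranges of -0.019 to 0.14 for Ncoa1, -3.37 to 1.16 for Il22ra2, -0.56 to 0.60 for Il7r, -2.08 to 0.13 for Gsta1 and -0.39 to 0.12 for Ido1. Without replicate 1 of both groups Ccr6 was called lower at -5.25 (adjusted p 0.028) and Haao at -2.54 (adjusted p 0.035). The same setting also called list genes whose sign held throughout: Aldh9a1, Nfe2l2, Slc6a19, Il22ra1 and Il10rb higher, and Slc7a5 and Kit lower. Kit passed the adjusted threshold in 8 of 19 alternatives and Aldh9a1 in 6. Over the fits that left libraries out Ccr6 and Haao ran from -5.94 to -0.02 and from -2.98 to -0.41. The cause of these moves was not tested. Ahrr and Cyp1a1 had few counts, 42 and 7 in all, and Ahrr also differed within each group beyond counting error.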
